A study of Mus musculus with 6 samples.

Results

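The genes described here are the core of the NRF2 antioxidant pathway in mouse liver: the transcription factor NRF2 (Nfe2l2), its inhibitor KEAP1 (Keap1), and 8 commonly used NRF2 target genes outside the glutathione S-transferase family (Nqo1, Gclc, Gclm, Txnrd1, Srxn1, Gsr, Prdx1 and Osgin1). They form a fixed list of 10 genes out of 55487 in the count table, and all 10 were among the 14046 genes with enough counts to be tested. Liver RNA-seq was performed on 6 wild-type male C57BL/6J mice, all kept on normal chow, with livers taken at 17 weeks of age. Of these, 3 received GalNAc-siNC, a control siRNA, and 3 received GalNAc-siRnf10, an siRNA against Rnf10 (an E3 ubiquitin ligase). Both siRNAs were injected under the skin and both carried N-acetylgalactosamine (GalNAc), a sugar that binds the asialoglycoprotein receptor of hepatocytes. The study calls the active conjugate GalNAc-siRnf10-2, and it used the comparison to look for off-target effects of the siRNA. All libraries carry the label batch 1, equal mouse numbers in the groups name different animals, and the dose and injection times of these mice are not given in the sources used here.

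NRF2 is made continuously and is normally degraded soon after, because KEAP1 links it to the CUL3 ubiquitin ligase. Oxidants and electrophiles modify cysteines of KEAP1, after which NRF2 escapes degradation, pairs with a small MAF protein and binds antioxidant response elements near genes for glutathione synthesis, thioredoxin and peroxiredoxin recycling, and quinone reduction. Control therefore lies largely at the level of NRF2 protein, which RNA-seq does not measure, and the mRNA levels of the targets are the usual transcriptional readout in liver.

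The core of the antioxidant response element, TGACNNNGC, was searched on both strands of the promoter windows of RefSeq (GRCm38.p6, 250 bases before to 50 bases after each start), because NRF2 binds its targets through this element. Windows were present for 8 of the 10 genes. Gclc and Gsr had none, and Txnrd1 had 3, of which 1 held a match. Across these, 5 of the 10 windows held a match, in 5 of the 8 genes, and 12.4% of all 32851 windows held one. The windows of Nqo1, Osgin1 and Keap1 had no match, which concerns only these letters in these windows. The only Osgin1 window (chr8:119436897-119437196) lay inside its gene model, which begins at 119434124. Sequence at the beginning of that model was therefore not searched. The matches before a start are given here 5′ to 3′ on the strand that carries the element, with the core in capitals.
Nfe2l2: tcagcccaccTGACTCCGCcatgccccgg
Gclm: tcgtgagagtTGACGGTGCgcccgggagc
Prdx1: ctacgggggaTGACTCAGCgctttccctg
Txnrd1: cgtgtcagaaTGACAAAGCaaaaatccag
These stretches lie at chr2:75704885-75704913, chr3:122245413-122245441, chr4:116685456-116685484 and chr10:82859104-82859132. The Nfe2l2 core lay on the strand of the gene, beginning 240 bases before the start that its window covers. The cores of Gclm, Prdx1 and Txnrd1 lay on the opposite strand, 134, 133 and 92 bases before the start in their windows. For Txnrd1 that window (chr10:82858956-82859255) covers a start inside the gene model. Its window at the beginning of the model (chr10:82833701-82834000) had no match. The Prdx1 core contains TGACTCA, which is also the AP-1 motif. In Srxn1 the match, TGACCTAGC on the opposite strand, lay 29 bases after the start.

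Each library held between 26854377 and 33058645 counts, and 3 counts, the floor used here for detection, equal at most 1.12e-05% of a library. Rnf10 mRNA was lower in every GalNAc-siRnf10 mouse, with 1738, 1821 and 1793 normalized counts against 3869, 4536 and 4040 in the GalNAc-siNC mice (log2 fold change -1.22 ± 0.07, SE, n = 3 per group, adjusted p = 3.29e-09, edgeR's quasi-likelihood test, adjusted over all tested genes by the Benjamini-Hochberg procedure). Normalized counts are raw counts scaled by TMM (trimmed mean of M values) to a common library size, and fold changes are GalNAc-siRnf10 over GalNAc-siNC in that test throughout. The library of GalNAc-siNC mouse 1 stood apart from the other two controls, with a chi-square per gene of 30.7 and 30.0 against mice 2 and 3, while mice 2 and 3 differed by 10.3 and GalNAc-siRnf10 mice by 4.70 to 5.37. Without it, the same 4 of the 10 genes passed the test. In bulk liver, fewer cells of a type and less RNA per cell cannot be told apart.

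The NRF2 pathway genes did not move as a block. At an adjusted p under 0.05, 3 of the 10 genes rose (Nqo1, Gclc and Prdx1), 1 fell (Osgin1) and 6 did not pass (Nfe2l2, Keap1, Gclm, Txnrd1, Srxn1 and Gsr). Across all tested genes 14.0% passed, 6.71% higher and 7.28% lower. For 6 of the 10 genes every mouse of one group lay above every mouse of the other, with GalNAc-siRnf10 the upper group for 4 (Nqo1, Gclc, Srxn1 and Prdx1) and the lower for 2 (Gsr and Osgin1). Such separation was seen for 32.8% of all tested genes. The median log2 fold change of the 10 genes was 0.05, and that of all tested genes was 0.00. With 3 mice in each group, an exact two-sided permutation test of a single gene cannot give a p below 0.1, and it gave 0.1 for each of the 6 genes whose groups did not overlap.

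**Figure D1:**
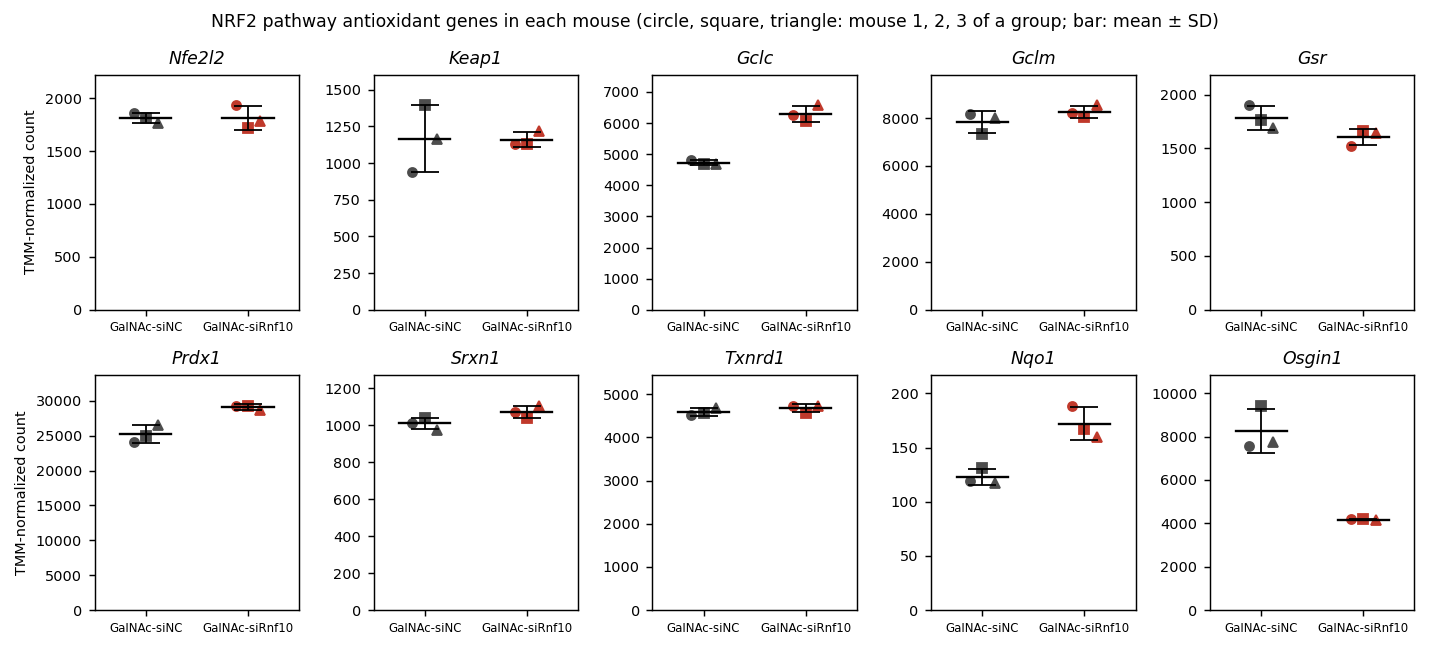
TMM-normalized counts (y axis, from 0) of the 10 NRF2 pathway genes in each mouse, GalNAc-siNC in grey and GalNAc-siRnf10 in red, with bars for the mean ± SD of 3 mice. Osgin1 lies between 4141 and 4189 in the GalNAc-siRnf10 mice and above 7575 in every control, Gclc is above 6070 in every GalNAc-siRnf10 mouse and below 4829 in the controls, and Nfe2l2 and Keap1 overlap between the groups.

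The regulators Nfe2l2 and Keap1 showed no detectable difference in mRNA. Nfe2l2 (ENSMUSG00000015839, chr2:75675513-75704641, minus strand) had 1859, 1810 and 1768 normalized counts in the GalNAc-siNC mice and 1933, 1714 and 1781 in the GalNAc-siRnf10 mice. The highest and the lowest value both came from GalNAc-siRnf10 mice. Its log2 fold change was -0.00 ± 0.07 (SE), with a 95% interval from -0.15 to 0.15 and an adjusted p of 0.986 (edgeR). Keap1 (ENSMUSG00000003308, chr9:21229730-21239361, minus strand) had 942, 1394 and 1166 normalized counts in the controls and 1127, 1132 and 1222 with GalNAc-siRnf10. The control values of Keap1 spanned the whole range of the other group, with a coefficient of variation of 19.4% against 4.58%. Its log2 fold change was -0.01 ± 0.12 (95% interval -0.27 to 0.25, adjusted p = 0.978, edgeR), so changes within that interval were not excluded. The direction of both genes turned between alternative fits, and Keap1 ranged from -0.14 without GalNAc-siNC mouse 1 to 0.14 without GalNAc-siNC mouse 2. Keap1 shares 510 of its 4693 exon bases with the antisense gene Gm16754, which had between 2 and 18 counts per library. The library kit kept strand, but the strand setting of the counting is not given in the sources used here.

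Of the subunits of the rate-limiting enzyme of glutathione synthesis, Gclc passed the test and Gclm did not. Gclc (ENSMUSG00000032350, chr9:77754535-77794485, plus strand) encodes the catalytic subunit of glutamate-cysteine ligase, and it had 4829, 4671 and 4691 normalized counts in the GalNAc-siNC mice and 6253, 6071 and 6574 in the GalNAc-siRnf10 mice. All GalNAc-siRnf10 mice were above all controls. The mean rose by 33.2%, for a log2 fold change of 0.41 ± 0.06 (SE, 95% interval 0.29 to 0.54, adjusted p = 0.000106, edgeR). Of all tested genes, 9.99% had a higher log2 fold change. Gclm (ENSMUSG00000028124, chr3:122245557-122270732, plus strand) encodes the modifier subunit of the same enzyme, which raises its affinity for glutamate. Gclm had 8180, 7321 and 7997 normalized counts in the controls and 8195, 8038 and 8535 with GalNAc-siRnf10. Control mouse 2 was lowest, control mouse 1 lay within the range of the other group, and the groups overlapped. The log2 fold change of Gclm was 0.08 ± 0.06 (95% interval -0.05 to 0.20, adjusted p = 0.456, edgeR). Gclm shares exon bases with the antisense gene Gm17494, which had 5 to 14 counts, and 4.58% of its 50-base words occur in other genes, 146 in all. Ppia, which holds 3.24% of them, had up to 13793 counts in a library, and H2-D1, which holds 0.110%, had up to 20568, against 7098 to 9397 for Gclm. How the counting treated such reads is not given in the sources used here.

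The balance of the subunit mRNAs was measured as the ratio of their counts per kilobase within a library, which needs no scaling between libraries. The Gclc to Gclm ratio was 0.986, 1.07 and 0.980 in the GalNAc-siNC mice and 1.28, 1.26 and 1.29 in the GalNAc-siRnf10 mice. The groups did not overlap, and the difference of 0.34 on the log2 scale reached the smallest p this design allows (exact two-sided permutation test, p = 0.1, adjusted p = 0.267 over 4 ratios). In these units the mRNA of the catalytic subunit was close to that of the modifier subunit in the controls and exceeded it in every GalNAc-siRnf10 mouse. The level of the ratio depends on the lengths of the gene models, and no subunit protein was measured. Gss, which completes glutathione synthesis after this enzyme and was looked up as the next step of the pathway, had 1975 ± 113 (SD) normalized counts in controls and 1987 ± 2.47 with GalNAc-siRnf10, and did not pass the test (log2 fold change 0.01, adjusted p = 0.952, edgeR).

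Gsr (ENSMUSG00000031584, chr8:33652523-33698163, plus strand) encodes glutathione reductase, which returns oxidized glutathione to its reduced form with NADPH. It had 1901, 1764 and 1686 normalized counts in the GalNAc-siNC mice and 1525, 1658 and 1642 in the GalNAc-siRnf10 mice. Every GalNAc-siRnf10 value lay below every control value, but the gap between the closest mice was small beside the spread within each group. The log2 fold change of -0.15 ± 0.07 (95% interval -0.30 to 0.01) did not pass the test (adjusted p = 0.203, edgeR). It passed in only 1 of 15 alternative fits, the one corrected for GC content and gene length (log2 fold change -0.19, adjusted p = 0.0423, edgeR).

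**Figure D2:**
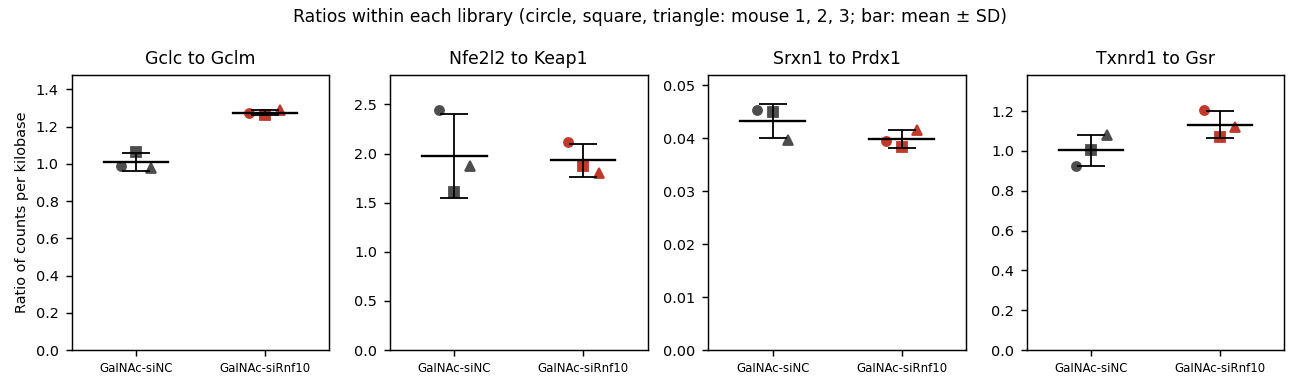
Ratios of counts per kilobase of partner genes within each library (y axis, from 0), for Gclc to Gclm, Nfe2l2 to Keap1, Srxn1 to Prdx1 and Txnrd1 to Gsr, with points for single mice, GalNAc-siNC in grey and GalNAc-siRnf10 in red, and bars for the mean ± SD of 3 mice. The Gclc to Gclm ratio separates the groups (0.980 to 1.07 against 1.26 to 1.29), and the other ratios overlap.

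Of the enzymes that clear peroxides through thiols, Prdx1 passed the test and Srxn1 and Txnrd1 did not. Prdx1 (ENSMUSG00000028691, chr4:116685544-116700822, plus strand) encodes peroxiredoxin 1, an abundant cytosolic peroxidase, and had 24169, 24950 and 26601 normalized counts in the GalNAc-siNC mice and 29336, 29339 and 28681 in the GalNAc-siRnf10 mice. All GalNAc-siRnf10 mice were above all controls, by 15.4% on average. Its log2 fold change was 0.21 ± 0.05 (SE, 95% interval 0.09 to 0.32, adjusted p = 0.0140, edgeR). The call did not hold in any fit that left out a GalNAc-siRnf10 mouse, with adjusted p of 0.102, 0.101 and 0.0746 without mouse 1, 2 and 3 and fold changes of 0.20, 0.20 and 0.22 on the log2 scale (edgeR). Of its 50-base words 8.81% also occur in other genes, 75 in all. Gm21399, which holds the most of them (5.44%), had at most 241 counts in a library, and Qsox1, which holds 0.389%, had up to 24866.

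Srxn1 (ENSMUSG00000032802, chr2:152105516-152111376, plus strand) encodes sulfiredoxin, which repairs overoxidized peroxiredoxins such as PRDX1. It had 1014, 1040 and 977 normalized counts in the controls and 1073, 1042 and 1108 with GalNAc-siRnf10. The groups did not overlap, but the highest control and the lowest GalNAc-siRnf10 mouse were almost equal. The log2 fold change of 0.09 ± 0.08 (95% interval -0.07 to 0.25) did not pass the test (adjusted p = 0.500, edgeR). The Srxn1 to Prdx1 ratio per kilobase was 0.0453, 0.0450 and 0.0396 in the controls and 0.0395, 0.0383 and 0.0417 with GalNAc-siRnf10. These ranges overlapped (exact two-sided permutation test, p = 0.2, adjusted p = 0.267 over 4 ratios), so the mRNA of the repair enzyme was not shown to change relative to that of its substrate.

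Txnrd1 (ENSMUSG00000020250, chr10:82833951-82897712, plus strand) encodes the cytosolic thioredoxin reductase, which keeps thioredoxin and through it the peroxiredoxins reduced. Its normalized counts were 4523, 4564 and 4689 in the GalNAc-siNC mice and 4718, 4565 and 4738 in the GalNAc-siRnf10 mice. The values overlapped and were close in all 6 mice. With a log2 fold change of 0.03 ± 0.06 and a 95% interval from -0.10 to 0.15 (adjusted p = 0.826, edgeR), Txnrd1 was among the more tightly bounded of the genes that did not pass. The Txnrd1 to Gsr ratio, which compares the reductases of the thioredoxin and glutathione systems, was 0.925, 1.01 and 1.08 in the controls and 1.20, 1.07 and 1.12 with GalNAc-siRnf10. These values overlapped as well (difference 0.17 on the log2 scale, exact two-sided permutation test, p = 0.2). Its substrate thioredoxin, Txn1, had 3688 ± 697 (SD) normalized counts in controls and 4579 ± 170.5 with GalNAc-siRnf10, which did not pass the test (log2 fold change 0.31, adjusted p = 0.163, edgeR).

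Nqo1 (ENSMUSG00000003849, chr8:107388225-107403206, minus strand) encodes NAD(P)H quinone dehydrogenase 1, the enzyme most often used to read NRF2 activity. It had 119, 131 and 118 normalized counts in the GalNAc-siNC mice and 189, 167 and 159.7 in the GalNAc-siRnf10 mice. All GalNAc-siRnf10 mice were above all controls, with GalNAc-siRnf10 mouse 1 the highest. Nqo1 was the gene with the fewest reads of the 10, between 119 and 175 raw counts per library, and counting error alone gives a coefficient of variation of 8.28% at this depth. Its mean was 40.2% higher with GalNAc-siRnf10 (log2 fold change 0.49 ± 0.15, SE, 95% interval 0.18 to 0.80, adjusted p = 0.0360, edgeR), close to the threshold. It passed in 8 of 15 alternative fits. The call was lost without GalNAc-siNC mouse 3 (log2 fold change 0.46, adjusted p = 0.0877, edgeR) and without GalNAc-siRnf10 mouse 1, 2 or 3 (0.42, 0.51 and 0.54, with adjusted p = 0.170, 0.0947 and 0.0707, edgeR), and after correction for GC content and gene length, where the log2 fold change was 0.32 (adjusted p = 0.138, edgeR).

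Osgin1 had the largest difference of the 10 genes, and it lay in the direction opposite to Nqo1, Gclc and Prdx1. Osgin1 (ENSMUSG00000074063, chr8:119434124-119446256, plus strand) encodes oxidative stress induced growth inhibitor 1, which is known to be induced by oxidative stress and oxidized phospholipids and to restrain cell growth. Normalized counts were 7575, 9431 and 7741 in the GalNAc-siNC mice and 4189, 4176 and 4141 in the GalNAc-siRnf10 mice. Even the lowest control was far above the highest GalNAc-siRnf10 mouse, and control mouse 2 was the highest of all. The mean was 49.5% lower, and the log2 fold change was -0.98 ± 0.08 (SE, 95% interval -1.14 to -0.83, adjusted p = 8.59e-08, edgeR). Only 167 of the 14046 tested genes, or 1.19%, had a lower log2 fold change. The GalNAc-siRnf10 mice were alike, with a coefficient of variation of 0.602%, against 12.5% in the controls. Counting error alone gives 1.26% at the mean raw count of all libraries, which includes the higher counts of the controls. This error is larger at the 3706, 4368 and 3888 raw counts of the GalNAc-siRnf10 mice. The call held in each of 15 alternative fits, with log2 fold changes between -1.04 and -0.88. Of the 50-base words of Osgin1, none occurred in another gene of the GENCODE M21 transcripts.

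Levels between genes were compared per kilobase of gene model. In the GalNAc-siNC mice Prdx1 was highest (8294 normalized counts per kilobase), followed by Osgin1 (3085), Gclc (1256), Gclm (1245), Txnrd1 (648), Gsr (648), Nfe2l2 (477), Srxn1 (358), Keap1 (249) and Nqo1 (78.9). The ranges of the 3 mice overlapped between the neighbours Gclc and Gclm and between Txnrd1 and Gsr, and the other neighbours were separate. In the GalNAc-siRnf10 mice the order was the same except that Gclc (1673) stood above Osgin1 (1559), and no neighbours overlapped, with Gclm at 1312, Txnrd1 at 660 and Gsr at 584. The classical indicator gene Nqo1 was therefore the least abundant of the set in both groups, at 111 normalized counts per kilobase with GalNAc-siRnf10, while Prdx1 reached 9569.

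**Figure D3:**
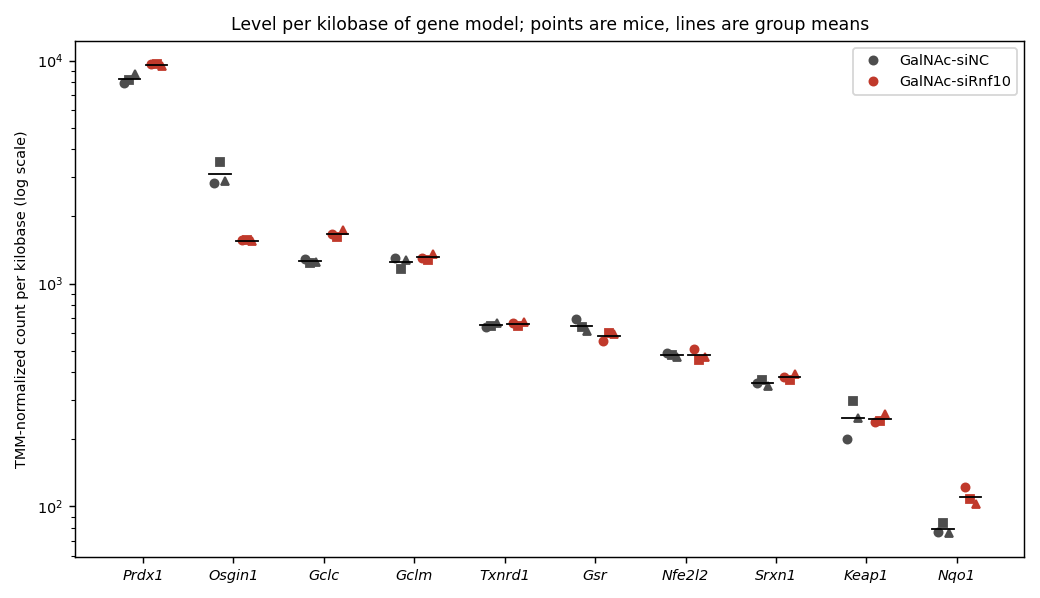
Normalized counts per kilobase of gene model (log scale) of the 10 genes, ordered by their mean in the GalNAc-siNC mice, with points for mice, GalNAc-siNC in grey and GalNAc-siRnf10 in red, and lines for group means. Levels span from 78.9 (Nqo1, controls) to 9569 (Prdx1, GalNAc-siRnf10), and Osgin1 and Gclc exchange places between the groups.

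Of 16 other regulators of the pathway, none rose and 1 fell, with a median log2 fold change of 0.01. They include the ligase subunits Cul3 and Rbx1, the small MAF genes and the competing repressors Bach1 and Bach2. Over all tested genes 6.71% rose and 7.28% fell, the shares to read beside the counts of this and the following lists. The regulator that fell was Mafk, a small MAF protein that pairs with NRF2 (and, in other complexes, with its repressor BACH1). The other small MAF genes did not fall with it. Mafg was above every control in all GalNAc-siRnf10 mice without passing (log2 fold change 0.18, adjusted p = 0.0889, edgeR). Maff overlapped between the groups, and both were named after their values were seen. Mafk had 457.9, 506 and 555 normalized counts in the controls and 390.0, 358 and 384 with GalNAc-siRnf10, without overlap (log2 fold change -0.42 ± 0.11, adjusted p = 0.0117, edgeR). Its list had 3 lower calls without GalNAc-siNC mouse 1, 1 higher and no lower call without GalNAc-siNC mouse 3, and no call without GalNAc-siRnf10 mouse 2. Sqstm1, which encodes the KEAP1-binding autophagy receptor p62 and was the most abundant regulator per kilobase, had 10654 ± 551 (SD) normalized counts in the controls and 10602 ± 112 with GalNAc-siRnf10 (log2 fold change -0.01, adjusted p = 0.955, edgeR).

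Of 32 other genes described as NRF2 targets 29 were tested, 12 rose, none fell and 17 did not pass, and the median log2 fold change was 0.20. Those with the largest changes were Abcc3, an organic anion exporter of the basolateral membrane (3039 ± 113 to 5421 ± 9.08, SD, log2 fold change 0.84, adjusted p = 3.76e-08, edgeR), Blvrb, which encodes biliverdin reductase B (log2 fold change 0.71), Cbr1, which encodes carbonyl reductase 1 (0.66), and Htatip2 (0.64). Mgst1, a microsomal glutathione transferase and the most abundant of these per kilobase, did not pass (log2 fold change 0.10, adjusted p = 0.304, edgeR). Leaving out any one of GalNAc-siRnf10 mouse 1, 2 or 3 lowered the count from 12 to 7 rising genes. The untested genes Cbr3, Gpx2 and Slc7a11 had at most 16 counts in a library. Hmox1 encodes heme oxygenase 1, the textbook target that is most responsive to heme. It had 322 ± 53.8 normalized counts in controls and 328 ± 33.5 with GalNAc-siRnf10 (log2 fold change 0.03, adjusted p = 0.914, edgeR), and it was chosen for mention after its values were seen.

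The glutathione S-transferase genes, which conjugate electrophiles to glutathione, had the highest median of the 6 other pathway lists. Of 16 genes, all tested, 13 rose and none fell, with a median log2 fold change of 0.71 and 11 to 15 calls over the alternative fits. Gstp2 (log2 fold change 2.08), Gsta2 (1.75), Gsta4 (1.18) and Gstm1 (0.99) had the largest among called genes with a mean of at least 50 normalized counts, and Gstp1, the most abundant per kilobase, had a log2 fold change of 0.84 (adjusted p = 0.0229, edgeR). Gstp1 and Gstp2 are close paralogs, and their values are uncertain to the extent that the counting could split reads between them, which was not measured here. Nor was it measured for Gsta2, Gsta4 and Gstm1, which have other Gsta or Gstm genes beside them in the list. Gclc and Nqo1, the members with the largest increases among the 10 genes, lay below the median of this family.

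In the rest of the glutathione system 17 of 18 genes were tested, of which 5 rose, 1 fell and 11 did not pass (median log2 fold change 0.26). The rising genes included Glrx, which encodes glutaredoxin (0.39), Chac2, a glutathione-degrading enzyme (0.33), Gpx4, the phospholipid hydroperoxidase (0.29), and Esd (0.28). The gene that fell was Oplah, which encodes 5-oxoprolinase of the glutathione breakdown cycle (-0.24), and it was named after its values were seen. Gpx1, the most abundant of the list, had 43485 ± 6499 (SD) normalized counts in the controls and 55636 ± 2382 with GalNAc-siRnf10 and did not pass (adjusted p = 0.0649, edgeR). Without GalNAc-siRnf10 mouse 1, 2 or 3 the list had 2, 2 and 3 rising and no falling genes.

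Among 17 other peroxide and superoxide enzymes 4 rose and none fell (6.71% and 7.28% of all tested genes), with a median log2 fold change of 0.19. These were Sod2, the mitochondrial superoxide dismutase (0.33), Txn2 (0.26) and Prdx3 (0.19), the mitochondrial thioredoxin and peroxiredoxin, and Cat, the peroxisomal catalase (0.17). Of the list, 1 gene passed when GalNAc-siRnf10 mouse 1, 2 or 3 was left out, and 7 passed without GalNAc-siNC mouse 1. The aryl hydrocarbon receptor shares Nqo1 and several Gst genes with NRF2 as targets. Of its 7 listed genes, the receptor included, 5 were tested, and 2 rose: Ahr itself (0.48, adjusted p = 0.000385, edgeR) and the hepatic target Cyp1a2 (0.25, adjusted p = 0.00327, edgeR). Tiparp, another target, was below every control in all GalNAc-siRnf10 mice without passing (-0.39, adjusted p = 0.0730, edgeR). Cyp1a1 was above every control in all GalNAc-siRnf10 mice, also without passing (0.98, adjusted p = 0.128, edgeR), at a mean of only 22.0 normalized counts. Cyp1b1 overlapped between the groups. Tiparp, Cyp1a1 and Cyp1b1 were named after their values were seen, and 32.8% of all tested genes separated the groups in either direction. The AhR list had 1 lower call with the correction for GC content and gene length.

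**Figure D4:**
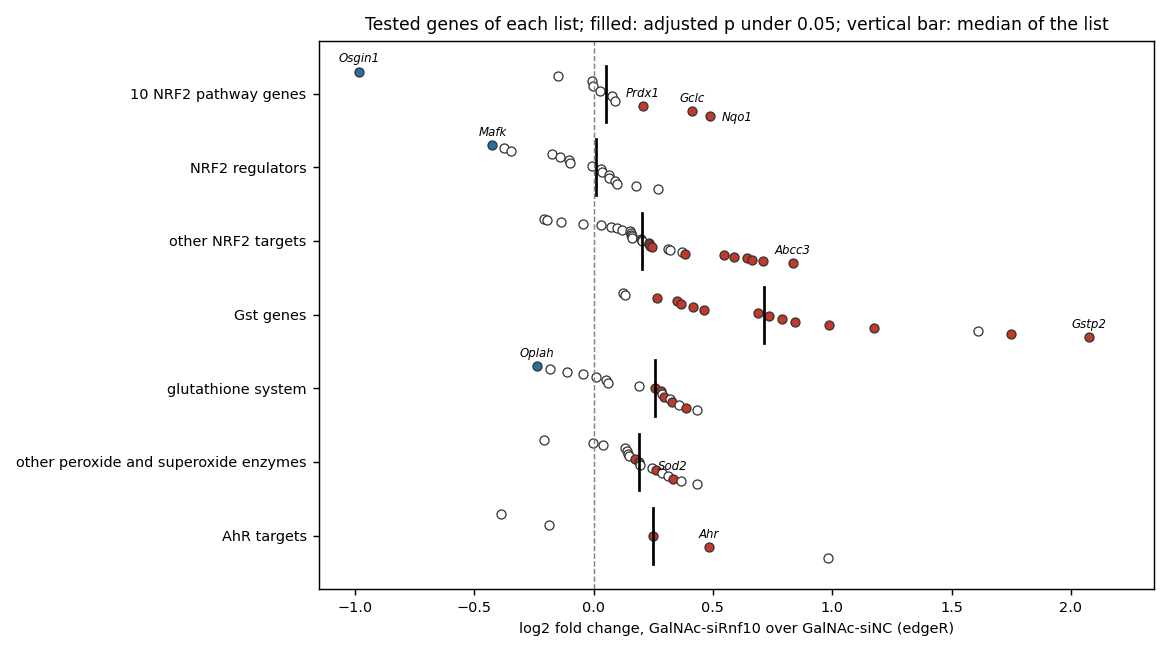
Log2 fold changes (GalNAc-siRnf10 over GalNAc-siNC, edgeR) of the tested genes of each list, with filled points for adjusted p under 0.05, open points for the others, and a vertical bar at the median of each list. The 10 NRF2 pathway genes centre on 0.05 with Osgin1 alone at the left, and the Gst genes centre on 0.71.

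Markers of the cell types of liver moved with treatment in part. Of 8 hepatocyte markers 4 rose (Alb, Cps1, Tat and Ttr) and none fell, and their summed normalized counts were 1566100 to 1658400 in the GalNAc-siNC mice and 2383400 to 2466000 in the GalNAc-siRnf10 mice, most of it Alb. The log2 fold changes of all 8 hepatocyte markers lay above 0, with a median of 0.52. None of the 10 Kupffer and macrophage markers passed the test by edgeR, and their sums of 6594 to 7982 and 7309 to 7712 overlapped. Of 8 endothelial markers 2 rose (sums 2604 to 2652 against 2776 to 2941). Their log2 fold changes lay above 0 for 6 and below 0 for 2, both lower in every GalNAc-siRnf10 mouse without passing. Of 8 stellate markers 3 rose (sums 4398 to 4488 against 5089 to 5123). The stellate log2 fold changes split into 4 above and 4 below 0, with a median of -0.03, so the sums do not stand for the whole list. Of 5 tested cholangiocyte markers 1 fell, Spp1, which made up most of their sums (2040.1 to 2085 against 1127 to 1162). The log2 fold changes of all 5 cholangiocyte markers lay below 0, with a median of -0.26. Of 4 tested lymphocyte and neutrophil markers 1 fell, S100a9 (sums of the list 242 to 275 against 206 to 276). The livers thus carried abundant hepatocyte transcripts in all 6 mice. The part of these shifts in the values of Nqo1, Gclc, Prdx1 and Osgin1 was not tested.

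The 4 calls differed in how firmly they stood over 15 alternative fits, which changed the normalization, the filter, the test, the block or the mice, or corrected for GC content and gene length. Gclc and Osgin1 passed in all 15 and Prdx1 in 12, while Nqo1 passed in 8. No alternative reversed the direction of any of these 4 genes. The log2 fold change of Gclc stayed between 0.38 and 0.44 and that of Prdx1 between 0.13 and 0.24. Leaving out GalNAc-siRnf10 mouse 1, 2 or 3 left 2 of the 10 genes called, Gclc and Osgin1, and at those settings 1053, 1128 and 1128 genes passed in all, in place of 1965.

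**Figure D5:**
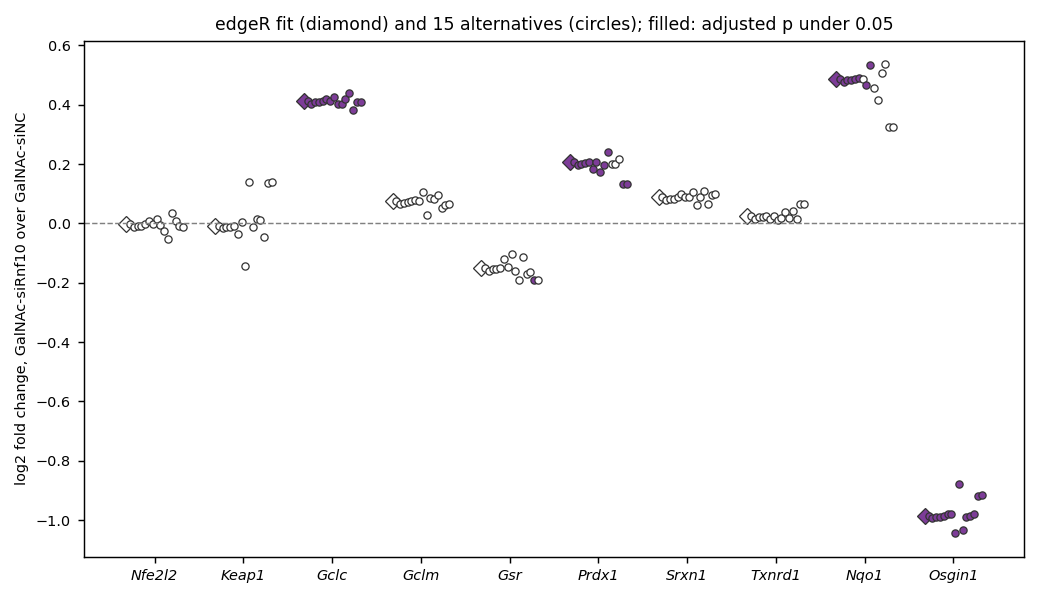
Log2 fold change of each of the 10 genes (y axis) in the reported edgeR fit (diamond) and in 15 alternative fits (circles, in a fixed order from left to right), filled where the adjusted p was under 0.05. Gclc and Osgin1 are filled throughout, Nqo1 in 8 and Prdx1 in 12 alternatives, and Nfe2l2 and Keap1 lie on both sides of 0.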

How the data were processed

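Livers of 6 mice were profiled by stranded, paired-end mRNA sequencing with reads of 150 bases. The authors mapped the reads to GRCm38 (mm10) with HISAT2, and the deposited values are raw counts per Ensembl gene, without normalization, next to the length of each gene model. The counting tool, annotation release and strand setting are not given in the sources used here. Every column was matched to a mouse by its label. Differential expression was assessed with edgeR 4.0.16 (under R 4.3.3), using its default filter on low counts by group, TMM scaling and the robust quasi-likelihood test with treatment as the only term, with Benjamini-Hochberg adjustment over 14046 genes and a threshold of 0.05. The common dispersion was 0.00861, a biological coefficient of variation of 9.28%. The edgeR p-values set the difference between groups against the variation between mice within groups, which edgeR moderates across genes. Floors cover counting error only. Symbols, exons and shared 50-base words came from GENCODE M21, whose spans equal those of the deposited gene models for all 10 genes and Rnf10. The script was tested on simulated counts. Ratios were tested by exact permutation (scipy 1.17.1).

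The 10 genes and all other lists were chosen with earlier results of these data known. All 10 were described. From the other lists, called genes could be named, limited in lists with at least 5 calls to the 4 largest changes with a mean of at least 50 normalized counts, plus the most abundant gene of each list and genes that a sentence on one of the 10 needed. Oplah, Hmox1, Tiparp, Cyp1a1, Cyp1b1, Mafg and Maff fell outside this rule. Alternatives were RLE and upper quartile normalization, no filter or a minimum of 10 counts per mouse, the Wald test of DESeq2 1.42.0, limma 3.58.1 (voom with sample weights), mouse number as a block, and leaving out each mouse. Offsets for GC and length of each gene were added after seeing the data.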

Additional observations from a re-analysis of the deposited data

How the results depend on the processing

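Across the alternatives, the genes called (1965) ranged from 1053 (without GalNAc-siRnf10 mouse 1) to 2864 (without GalNAc-siNC mouse 1) when mice were left out, the called NRF2 pathway genes from 2 to 4 of 10, and the called genes of the other pathway lists (38) from 23 to 52, the lowest without GalNAc-siRnf10 mouse 2. At an adjusted p under 0.01, 1042 genes and 2 of the 10 were called, and with a log2 fold change of at least 1 in either direction as well, 227 genes and 0 of the 10 (4 without this limit, by edgeR). Normalization, filter, DESeq2, voom and the correction for GC content and gene length moved none of these 3 totals by over 1.5 times. Within single lists, the calls among regulators went from 1 to 2 with no filter and with the correction, and those among the other peroxide and superoxide enzymes from 4 to 7 with voom. Under the correction Nqo1 was lost and Gsr was called. Nfe2l2 and Keap1, never called, changed sign: Nfe2l2 to 0.0075 with voom and between -0.0521 and 0.0351 when mice were left out, and Keap1 to 0.14 with the correction, 0.14 with the correction and the replicate block, and between -0.14 and 0.14 when mice were left out. With mouse number as a replicate block, 1816 genes and 3 of the 10 were called, Nqo1 had an adjusted p of 0.0501 (edgeR), and Keap1 was at 0.0063. Mice of equal number did not deviate together (correlations -0.00, 0.03 and -0.03), so no shared shift in expression was seen. Whether equal numbers mark a shared origin was not tested. The cause of these shifts was not tested. Differences within the 95% intervals of the 6 uncalled genes were not excluded with 3 mice per group.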
